A study of Mus musculus with 17 samples.

Results

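The genes described here build and run the mitotic machinery: the mitotic kinases and cyclins, the chromosomal passenger complex, the kinetochore with its checkpoint, the microtubule motors and binding proteins of the spindle, condensin with topoisomerase II, and the proteins that start anaphase. The 47 genes were listed by function. Of the 47 genes, 40 had at least 1 probe with a gene symbol, with 75 probes among them, out of 12989 genes and 20873 probes with 1 symbol. Ccnb1, Ccnb2, Nek2, Racgap1, Tacc3, Mki67 and Pttg1 were not matched to a probe, and no values are given for them. The study itself lists an Mki67 probe, lower in aged than in young mice, so Mki67 was on the array but was not matched here. The 75 probes were followed in bone marrow antibody-secreting cells (ASCs) sorted from young and aged mice.

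ASCs are the B-lineage cells that make and release antibody. The 9 young samples came from mice of 6 to 8 weeks of age and the 6 aged samples from mice of over 17 months of age, all purchased from Charles River with no strain stated for the array samples. Marrow was flushed from the hind leg bones, cells were sorted for ASCs, and their amplified RNA was hybridized to BeadChips of the type Illumina MouseWG-6 v2, where a brighter probe means more of its transcript. No treatment is described. The sample labels call the cells B cells. For young samples 3 and 4 there were 2 arrays each, which gives 17 arrays in all. Cells of single mice or of pooled mice were used. The study names more aged mice than there are aged samples, and which samples are pools is not given, so pooling and age cannot be told apart. The spread between samples may therefore not be a spread between mice.

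A cell that enters mitosis switches on cyclin-dependent kinase 1, condenses its chromosomes with condensin and topoisomerase II, and attaches them through kinetochores to spindle microtubules. The spindle checkpoint holds anaphase back until every kinetochore is attached. Cdc20 then activates the anaphase-promoting complex, separase cuts cohesin, and the passenger complex and the central spindle guide the division of the cell. Long-lived plasma cells are non-dividing, whereas plasmablasts and the B cell precursors of the marrow divide. Most of these genes are transcribed in G2 and mitosis through promoters that carry a CHR element (TTTGAA or TTCGAA), read by the DREAM and MuvB complexes, and CCAAT boxes, read by NF-Y.

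The promoter letters of these genes are shown first because they are what most members share outside the list's definition. Promoters of 39 of the 47 genes were in the RefSeq table of GRCm38.p6, as 41 windows that run from 250 bases before to 50 bases after the start of transcription. Either strand was searched for TTTGAA, for TTCGAA and for CCAAT. The string TTTGAA was in 73.2% of the member promoters (30 of 41) and in 17.9% of all 32851 promoters. TTCGAA was in 7.32% and 1.56%, CCAAT in 75.6% and 37.4%, and a CHR letter string together with CCAAT in 68.3% and 7.52%. Among 104 promoters of other mitosis genes 45.2% held TTTGAA or TTCGAA, and among 34 promoters of DNA replication genes 17.6% did. These matches describe letters in a window and show no binding.

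The windows of 5 genes whose signals are given below are printed 5′ to 3′ on the strand of the gene, with the CHR strings and CCAAT of either strand in capitals. On the reverse strand TTTGAA reads TTCAAA, and CCAAT then appears as ATTGG. They are Birc5 (chr11:117848987-117849286, + strand), Top2a (chr11:99024140-99024439, − strand), Cdc20 (chr4:118437294-118437593, − strand), Kif11 (chr19:37376132-37376431, + strand) and Aurka (chr2:172370521-172370820, − strand).
Birc5: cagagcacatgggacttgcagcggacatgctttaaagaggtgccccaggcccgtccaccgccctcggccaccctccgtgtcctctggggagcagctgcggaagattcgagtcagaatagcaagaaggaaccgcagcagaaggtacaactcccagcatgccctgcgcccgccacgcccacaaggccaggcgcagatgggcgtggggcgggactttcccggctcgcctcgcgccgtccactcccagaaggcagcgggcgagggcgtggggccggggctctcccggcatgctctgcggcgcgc
Top2a: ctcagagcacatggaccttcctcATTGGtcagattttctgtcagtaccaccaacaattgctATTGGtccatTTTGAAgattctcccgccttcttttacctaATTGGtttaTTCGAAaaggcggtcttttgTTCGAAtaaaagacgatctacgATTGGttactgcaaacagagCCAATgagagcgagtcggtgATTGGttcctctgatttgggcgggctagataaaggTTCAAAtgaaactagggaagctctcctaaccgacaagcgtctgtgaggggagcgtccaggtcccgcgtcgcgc
Cdc20: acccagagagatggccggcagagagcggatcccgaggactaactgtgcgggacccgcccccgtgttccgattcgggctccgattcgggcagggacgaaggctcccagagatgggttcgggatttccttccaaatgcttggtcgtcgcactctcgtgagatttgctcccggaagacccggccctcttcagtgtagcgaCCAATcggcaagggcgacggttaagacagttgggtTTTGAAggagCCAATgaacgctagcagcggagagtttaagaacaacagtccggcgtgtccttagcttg
Kif11: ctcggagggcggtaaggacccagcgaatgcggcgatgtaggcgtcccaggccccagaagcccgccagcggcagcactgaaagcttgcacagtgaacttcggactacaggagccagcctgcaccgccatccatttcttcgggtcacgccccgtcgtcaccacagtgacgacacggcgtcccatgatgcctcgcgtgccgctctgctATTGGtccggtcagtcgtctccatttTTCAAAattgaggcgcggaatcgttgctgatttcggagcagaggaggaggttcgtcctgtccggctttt
Aurka: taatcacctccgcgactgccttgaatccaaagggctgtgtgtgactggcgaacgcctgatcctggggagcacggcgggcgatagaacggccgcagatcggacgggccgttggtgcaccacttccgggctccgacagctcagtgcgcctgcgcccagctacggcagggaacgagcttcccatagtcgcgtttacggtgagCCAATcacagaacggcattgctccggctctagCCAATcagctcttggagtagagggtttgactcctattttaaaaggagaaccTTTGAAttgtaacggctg
The Top2a window held 10 of these strings, with TTTGAA or TTCGAA beginning 179, 140, 120 and 23 bases before the start. Cdc20 and Kif11 had TTTGAA 18 and 19 bases before the start, in opposite orientation to each other. In Aurka it lay 33 bases after the start, behind 2 CCAAT boxes. The Birc5 window held none of the strings, although a Birc5 probe had the smallest p of the list. The 26 measured genes with TTTGAA or TTCGAA had a median log2 fold change of -0.18, as did the 6 genes without either (-0.18).

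Most mitotic genes had a lower mean signal in aged ASCs. Taking for each gene the probe with the highest mean, 37 of 40 genes were lower and 3 were higher (Aurka, Anln and Smc4), where 53.2% of all genes were lower. The median log2 fold change, aged minus young throughout, was -0.18 over the members and -0.01 over all genes. Over all 75 probes 66 were lower, against 52% of all probes with 1 symbol. In bulk RNA, fewer cells that express these genes and less RNA per cell cannot be told apart.

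Single probes were compared with limma, adjusted by the Benjamini-Hochberg method over 11073 probes. These were detected in no fewer than 8 of the 15 samples and spanned at least 1.2-fold. This filter kept 35 member probes of 27 genes, 31 of them lower in aged ASCs, where 51.8% of all tested probes were lower. With 9 young and 6 aged samples, a probe could pass on young samples alone but not on aged samples alone. The tested probes of Ndc80, Cenpf and Top2a, detected in 8 young and 2 aged samples each, met the filter by the young alone. Counts of lower and higher tested probes are therefore not independent of the filter. At an adjusted p under 0.05, 2 member probes were lower (Birc5 and Stmn1) and 0 were higher. Of all tested probes 1.38% passed this threshold, 0.325% being lower and 1.06% higher, a split of 36 to 117 that became 7 to 82 with 75th percentile scaling in place of quantile normalization. At an unadjusted p under 0.05, 11 member probes were lower, against 5.27% of all tested probes, and 1 was higher, against 8.81%. By the methods' t-test after the same adjustment 1 member probe (Birc5) passed. With normexp background correction 3 passed (Birc5, Stmn1 and Top2a), and differences widened on the log2 scale, to -1.76 for Birc5, -1.81 for Top2a, -1.22 for Cdc20, -1.17 for Ccna2, -1.06 for Ndc80, -0.84 for Cenpf and 1.04 for Aurka, against the values given for these probes below. With 75th percentile scaling 25 of the 35 probes were lower and 0 passed the adjusted threshold.

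**Figure D1:**
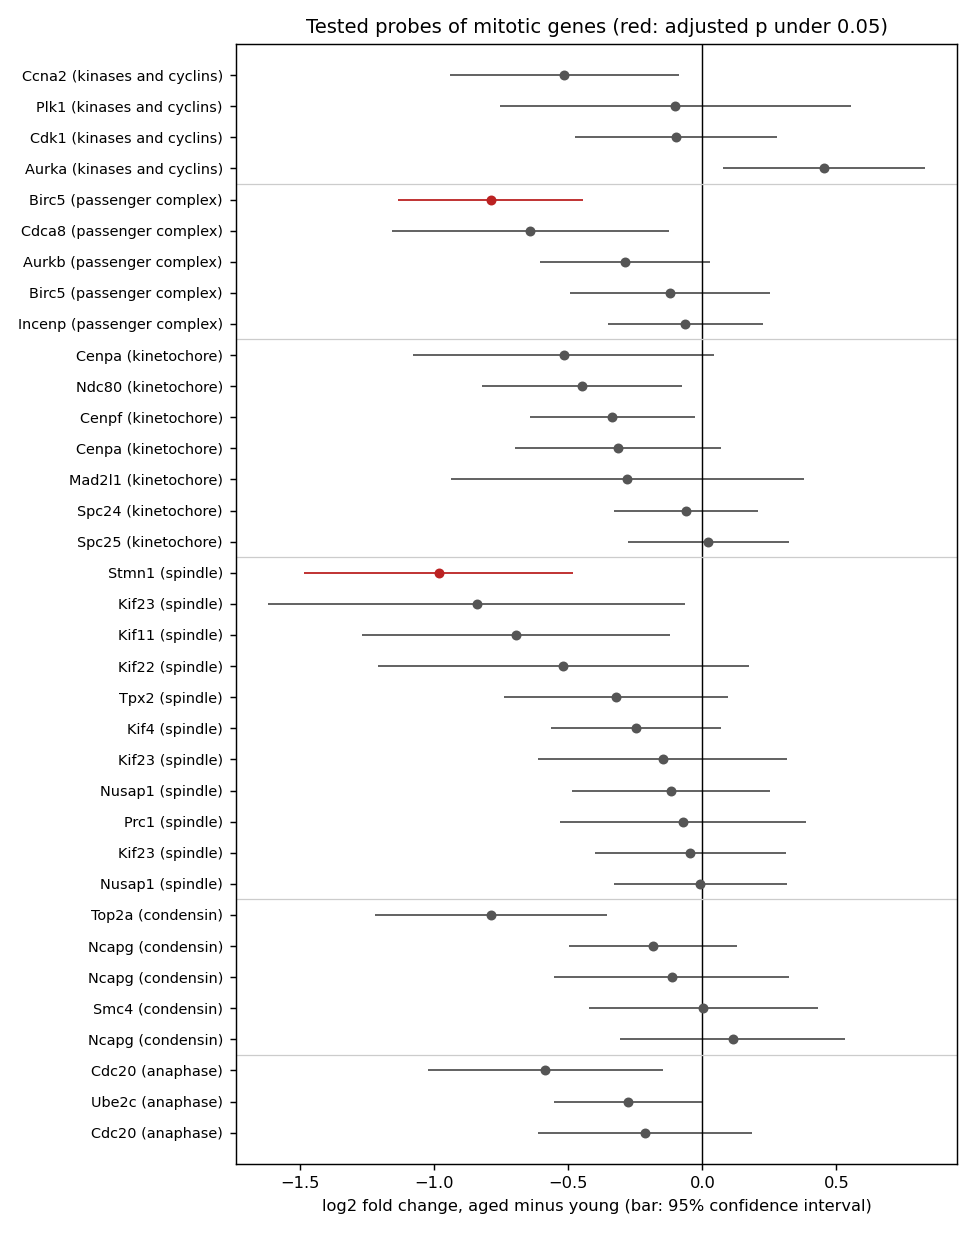
The log2 fold change (aged minus young, horizontal axis) of the 35 tested member probes, grouped by role, with 95% confidence intervals from limma as bars. 1 Birc5 probe and the Stmn1 probe, in red, have an adjusted p under 0.05, and Aurka is the 1 probe whose interval lies above 0.

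Among the kinases and cyclins, 5 of 8 genes had a probe, and 4 were lower and 1 was higher in aged ASCs (median log2 fold change -0.10). In limma 0 of their 4 tested probes passed the adjusted threshold, and at an unadjusted p under 0.05 1 was lower and 1 higher. Aurka, the kinase that matures spindle poles, ran against the rest of the list. Its log2 signal had a lowest, median and highest value of 7.84, 8.36 and 8.74 in young and 8.41, 8.60 and 9.28 in aged samples. The groups overlapped, but all 6 aged samples were above the young median, with aged samples 2 and 4 above every young sample. The log2 fold change was 0.45 (standard error 0.18, p = 0.0201, adjusted p = 0.243 from limma).

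Ccna2, the cyclin of S phase and G2, had values of 7.91, 8.63 and 9.35 in young and 7.64, 8.10 and 8.82 in aged samples. Its detection p-value was under 0.05, which counts as detected, for 7 of 9 young but 3 of 6 aged samples. The log2 fold change was -0.51 (standard error 0.21, adjusted p = 0.246 from limma). Plk1, the kinase that acts at centrosomes and kinetochores, was detected in every sample and varied more among the aged samples, from 8.60 to 11.06, than among the young, from 9.36 to 10.76. Its log2 fold change was -0.10, with a 95% interval from -0.76 to 0.55, and turned to 0.11 with 75th percentile scaling. Cdk1, the kinase that drives entry into mitosis, was also detected in every sample, and its log2 fold change of -0.10 had an interval from -0.47 to 0.28. The 3 probes of Ttk, the checkpoint kinase Mps1, were detected in at most 2 young samples and 1 aged sample each and were not tested.

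The chromosomal passenger complex, which corrects faulty attachments and later steers cytokinesis, had the lowest median of the roles. All 4 genes were lower in aged ASCs, with a median log2 fold change of -0.46. Birc5 encodes survivin, the subunit that brings it to centromeres, at chr11:117849237-117855743 (GRCm38.p6). The signal of Birc5 probe ILMN_2632712 was 8.96, 9.52, 9.03, 9.16, 8.77, 8.97, 9.17, 9.34 and 9.14 in young samples 1 to 9 and 8.40, 8.45, 8.28, 7.98, 8.56 and 8.29 in aged samples 1 to 6. Every aged sample was below every young sample, as in 1 of the 35 member probes and 0.217% of all tested probes. No member probe had every aged sample above every young sample, as 0.443% of all tested probes had. Young samples averaged 9.12 ± 0.22 (SD, n = 9) and aged samples 8.33 ± 0.20 (SD, n = 6), a 1.73-fold difference (log2 fold change -0.79, standard error 0.17, adjusted p = 0.0188 from limma). The adjusted p was 0.0576 without aged sample 3, 0.0577 without aged sample 4 and 0.0529 without aged sample 6.

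The other Birc5 probes did not separate the groups. Probe ILMN_2603699 had values of 8.05, 8.61 and 8.97 in young and 8.11, 8.40 and 9.09 in aged samples, and its log2 fold change was -0.12 (95% interval -0.49 to 0.25, adjusted p = 0.825 from limma). The third, ILMN_2681241, was detected in 5 young and 2 aged samples and was not tested, with a log2 fold change of -0.27. Which transcripts each probe reads was not analysed here.

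Cdca8 (borealin), which binds survivin in the complex, had values of 9.73, 10.30 and 10.89 in young and 8.81, 9.70 and 10.63 in aged samples. Aged samples 1, 3 and 5 lay below every young sample, whereas aged sample 2 lay above 7 of the 9. The log2 fold change was -0.64 (standard error 0.25, adjusted p = 0.226 from limma). For Aurkb, the kinase of the complex, the log2 fold change was -0.29 (adjusted p = 0.414), and for Incenp, its scaffold, it was -0.06 (adjusted p = 0.892).

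**Figure D2:**
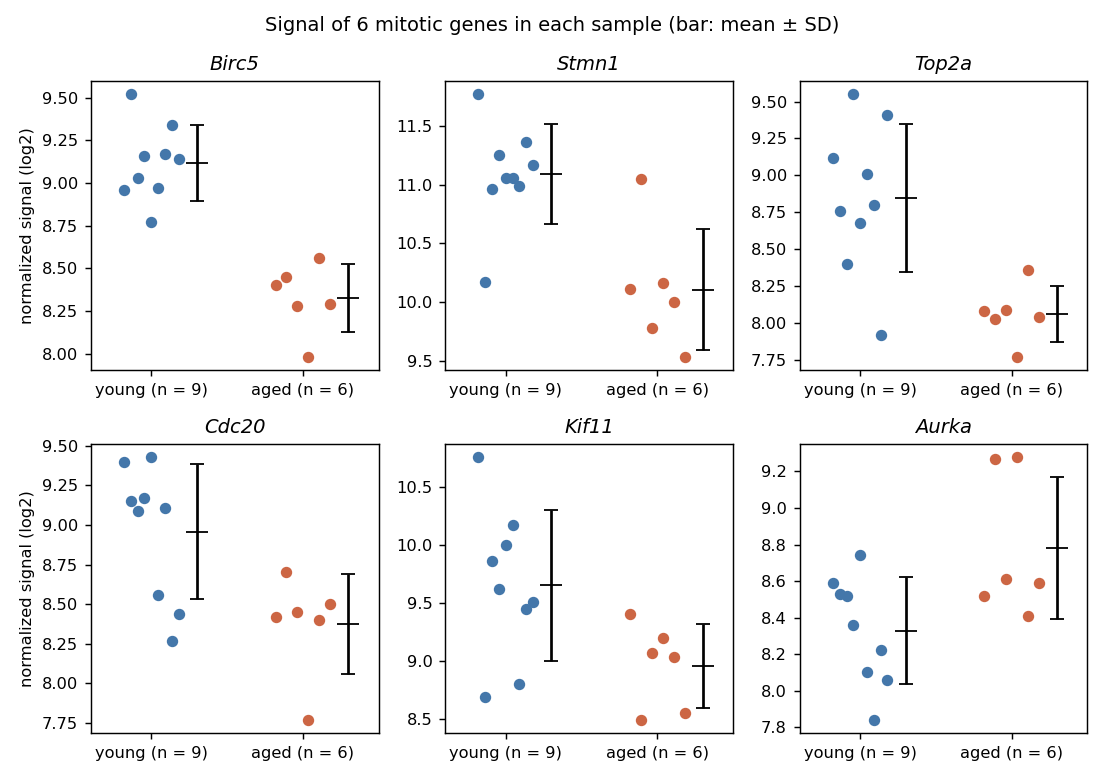
Normalized log2 signal (vertical axis, its own range in each panel) of 6 mitotic genes in the 9 young (blue) and 6 aged (orange) samples, 1 point per sample, with bars for mean ± SD. The groups are apart for Birc5 (lowest young sample 8.77, highest aged sample 8.56) and overlap for the other 5 genes, and Aurka alone is higher in the aged.

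All 11 kinetochore genes had a probe and, on the probe with the highest mean, a lower mean in aged ASCs, with a median log2 fold change of -0.19. Of these genes 5 (Bub1, Bub1b, Bub3, Cenpe and Nuf2) had no tested probe, and Spc25 was lower only on an untested probe. The Bub1b probes were at -0.02, detected in 2 young and 2 aged samples, and at 0.14, detected in 3 young and 4 aged samples. Of the 7 tested kinetochore probes 0 passed the adjusted threshold in limma and 2 were lower at an unadjusted p under 0.05. Ndc80, the microtubule-binding subunit of the complex named after it, had values of 7.87, 8.53 and 9.43 in young and 7.82, 8.12 and 8.37 in aged samples. Of the young samples 8 of 9 detected it and of the aged 2 of 6, and its log2 fold change was -0.45 (standard error 0.18, adjusted p = 0.247 from limma). Cenpf, a large protein of the outer kinetochore, had the same detection, 8 of 9 young against 2 of 6 aged samples. Its values were 8.03, 8.53 and 8.97 in young and 8.01, 8.23 and 8.41 in aged samples, and its log2 fold change was -0.34 (standard error 0.15, adjusted p = 0.304). For both genes all 6 aged samples lay below the young median, and 6 of the 9 young samples lay above every aged sample. Young samples 2, 7 and 9 lay within the aged range for Ndc80, and young samples 1, 2 and 7 for Cenpf. Number 2 was the lowest young sample for both.

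Cenpa, the histone H3 variant that marks centromeres, had 2 tested probes, with log2 fold changes of -0.52 (limma, adjusted p = 0.403) and of -0.31 (adjusted p = 0.474). Mad2l1, the checkpoint protein that restrains Cdc20, had a log2 fold change of -0.28 with a wide interval, from -0.94 to 0.38, and 2 young samples (1 and 5) stood above the others at 9.96 and 10.55. The other subunits of the Ndc80 complex gave mixed values. Spc24 was detected in all 15 samples, from 13.12 to 13.75 in young and from 12.98 to 13.66 in aged samples, with a log2 fold change of -0.06 (95% interval -0.33 to 0.21) that turned to 0.12 with 75th percentile scaling. Its second probe, detected in 2 young and 0 aged samples, had a log2 fold change of -0.23 and was not tested. The tested Spc25 probe had a log2 fold change of 0.02 (interval -0.28 to 0.32) and its untested probe one of -0.30. Nuf2 was detected by 4 of 9 young but 0 of 6 aged samples, which kept it out of the test. Its values were 7.80, 8.13 and 8.27 in young and 7.82, 7.91 and 7.97 in aged samples, with all 6 aged samples below the young median, and its log2 fold change was -0.19 (95% interval -0.34 to -0.04, unadjusted p = 0.0169 from limma, adjusted p = 0.554 where all probes were tested).

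The spindle group had 11 of 13 genes with a probe, 10 lower and 1 higher. Stmn1 encodes stathmin, which binds tubulin dimers and destabilizes microtubules, at chr4:134468320-134473843. Its signal was 11.77, 10.17, 10.96, 11.25, 11.06, 11.06, 10.99, 11.36 and 11.17 in young samples 1 to 9. The lowest, median and highest aged values were 9.53, 10.05 and 11.05. All aged samples except number 2, the highest, lay below every young sample, and young samples 2, 3 and 7, at 10.17, 10.96 and 10.99, lay within the aged range. The means were 11.09 ± 0.42 (SD, n = 9) and 10.10 ± 0.52 (SD, n = 6), a 1.98-fold difference (log2 fold change -0.98, standard error 0.24, adjusted p = 0.0455 from limma). The call was close to the threshold: it was kept in 7 of 29 alternative settings, among which the adjusted p ranged from 0.00112 to 0.313.

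Kif11, the motor that pushes the spindle poles apart, had values of 8.69, 9.62 and 10.76 in young and 8.49, 9.05 and 9.40 in aged samples. All aged samples were below the young median, and young samples 2 and 7, at 8.69 and 8.80, lay within the aged range. The log2 fold change was -0.70 (standard error 0.28, adjusted p = 0.243 from limma). Its second probe was detected in 0 young samples and 1 aged sample and had a log2 fold change of 0.01.

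Kif23, the central spindle motor, was read by 4 probes that gave different pictures. Probe ILMN_1250752 was detected in all samples and barely differed, with young samples at 11.03 ± 0.29 (SD, n = 9) and aged samples at 10.99 ± 0.14 (SD, n = 6) (log2 fold change -0.05, 95% interval -0.40 to 0.31). Its sign turned with 75th percentile scaling, to 0.12. Probe ILMN_1220121 spread from 7.94 to 11.57 in the young and from 8.26 to 9.95 in the aged samples, and its log2 fold change was -0.84 (interval -1.62 to -0.07, adjusted p = 0.31 from limma). The remaining probes had log2 fold changes of -0.15 and -0.17.

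Kif22 and Kif4, motors that ride on chromosome arms, were at -0.52 (adjusted p = 0.526 from limma) and -0.25 (adjusted p = 0.504) on the log2 scale, and 2 other Kif4 probes, detected in 1 or 2 samples, were near 0 (-0.01 and 0.03). Tpx2, which activates Aurora A on the spindle, was at -0.32 (adjusted p = 0.51). The microtubule bundlers Prc1 and Nusap1 were at -0.07 for Prc1 and at -0.12 and -0.01 for the 2 Nusap1 probes. A second Prc1 probe, untested, was detected in 0 young and 2 aged samples with a log2 fold change of 0.20. The interval of this probe ran from 0.04 to 0.35 (unadjusted p = 0.0164 from limma, adjusted p = 0.553 where all probes were tested). For it 5 aged samples lay above the young median and 1 lay below. Anln (anillin), which scaffolds the cleavage furrow, had probes at 0.14 and -0.09, neither tested, and Kif2c and Kif20a were not tested either.

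In the condensin group 5 of 6 genes with a probe were lower and 1 was higher. Top2a, the topoisomerase that untangles sister chromatids, is at chr11:98992947-99024199. Probe ILMN_2830661 had values of 9.12, 8.76, 8.40, 9.55, 8.68, 9.01, 8.80, 7.92 and 9.41 in young samples 1 to 9 and 8.08, 8.03, 8.09, 7.77, 8.36 and 8.04 in aged samples 1 to 6. Of the young samples 8 lay above every aged sample, and the other one, number 8, lay within the aged range. Detection was 8 of 9 in young and 2 of 6 in aged samples. The means were 8.85 ± 0.50 (SD, n = 9) and 8.06 ± 0.19 (SD, n = 6), and the difference of -0.79 on the log2 scale (standard error 0.21) missed the threshold with an adjusted p of 0.0624 from limma. The threshold was passed without young sample 8 (adjusted p = 0.0207 from limma). It was passed in 4 of 29 alternative settings, among which the adjusted p reached 0.195. The other Top2a probes, detected in at most 5 young samples and 1 aged sample, had log2 fold changes of -0.10 and -0.05 and were not tested.

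The condensin subunits themselves showed little. Ncapg, a regulatory subunit of condensin I, had 3 tested probes, at -0.18 (adjusted p = 0.642 from limma), -0.11 (adjusted p = 0.865) and 0.11 (adjusted p = 0.862) on the log2 scale. Smc4, an ATPase subunit, had a log2 fold change of 0.00 with an interval from -0.42 to 0.43. Smc2, Ncapd2 and Ncaph did not pass the filter, and each of their probes had a lower mean in the aged, by log2 fold changes between -0.19 and -0.09.

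Of the genes that start anaphase, 3 had a probe and all 3 were lower (median log2 fold change -0.28). Cdc20, the activator of the anaphase-promoting complex, had values of 8.27, 9.11 and 9.43 in young and 7.77, 8.44 and 8.70 in aged samples on probe ILMN_2867899. All aged samples were below the young median, and young samples 6, 8 and 9 lay among the aged values. The log2 fold change was -0.59 (standard error 0.21, adjusted p = 0.186 from limma), and that of the second tested Cdc20 probe was -0.21 (adjusted p = 0.684). Ube2c, the ubiquitin-conjugating enzyme that works with this complex, was detected by 7 of 9 young but 2 of 6 aged samples (log2 fold change -0.28, standard error 0.13, adjusted p = 0.352). The probes of Espl1, which encodes separase, were each detected in 1 young and 0 aged samples.

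Detection, which does not depend on the normalization, differed in the same direction for most roles but not for the spindle. The share of samples in which a probe was detected was larger in young for 45 of 75 member probes and larger in aged for 18, where 33.7% and 48.5% of all probes with 1 symbol were. For the condensin group it was larger in young for 11 of 13 probes and for the kinetochore for 13 of 20, but for the spindle group it was larger in young for 6 and in aged for 10 of 20 probes. The 18 probes detected in 0 aged samples include both Bub1 probes and both Espl1 probes, and 15.1% of all probes were not detected in aged samples. In these the signals in both groups lay too close to the background for a bound over 1-fold. The number of member probes detected per sample was 29 to 58 (median 40) in young and 24 to 40 (median 31.5) in aged samples, while all probes detected numbered 8998 to 15864 (median 12368) and 10401 to 17120 (median 12506). A sample measured on 2 arrays counts as detecting a probe if either array did, which raises the numbers of young samples 3 and 4.

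**Figure D3:**
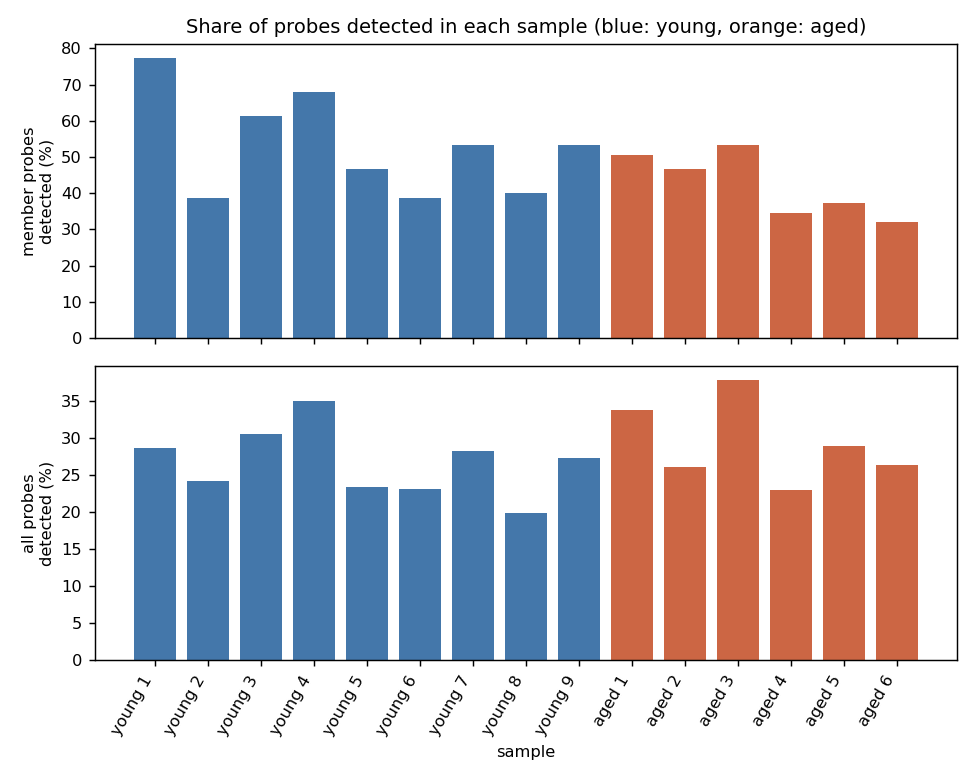
Share of probes that each sample detected at p under 0.05 (vertical axes in percent), for the 75 member probes above and all 45281 probes below, with young samples in blue and aged samples in orange. Young sample 1 had the highest member share (58 of 75 probes) and aged sample 6 the lowest (24 of 75), whereas the highest share of all probes was that of aged sample 3.

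The samples of each group were not alike. Of the 35 tested member probes, 13 to 27 (median 21) were above the median of the 15 samples in a young sample and 4 to 21 (median 8.5) in an aged sample. Aged sample 2 had 21 and was the highest aged sample for 12 probes, whereas aged samples 3 and 5 had 4 each. Among the young, sample 1 was the highest for 9 probes, and sample 2 the lowest for 13. The array of young sample 1 had the lowest median signal before normalization, 105, of a range from 105 to 333 in young and from 152 to 267 in aged samples.

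Genes of the B lineage outside the cell cycle differed as well. Among 13 genes of B cell precursors (such as Dntt, Igll1, Vpreb1 and Rag1), 11 had a probe, 9 lower and 2 higher in aged ASCs. Where 0.325% of all tested probes passed the adjusted threshold as lower, 6 of the 16 tested precursor probes did, and 0 passed as higher. They were probes of Dntt, Igll1, Vpreb1 and Rag1 and the Myb probes ILMN_2683910 and ILMN_2752817. The summed signal of the precursor genes was 6324 to 10854 in young and 4370 to 5890 in aged samples, with no overlap. Among the young the sum was highest in sample 1 and lowest in sample 2. The mean log2 signal of the same genes overlapped, at 8.75 to 9.49 in young and 8.42 to 8.81 in aged samples. Of 15 plasma cell genes (such as Xbp1, Prdm1 and Mzb1), all had a probe, 0 lower and 15 higher in aged ASCs, with a median log2 fold change of 0.82. Of their 16 tested probes 3 passed the adjusted threshold, all higher in the aged, where 1.06% of all tested probes passed as higher. At an unadjusted p under 0.05 in limma, 14 were higher, against 8.81% of all tested probes, and 0 were lower. In each sample of either group 11 to 15 of the plasma cell genes were detected. Their summed signal was 14548 to 19579 in young and 19719 to 30494 in aged samples, the lowest aged value being that of sample 2. By mean log2 signal the groups overlapped, at 9.17 to 9.61 in young and 9.47 to 10.49 in aged samples. The summed signals of the 40 mitotic genes were 28562 to 38379 in young and 23980 to 32539 in aged samples. Every gene of the precursor and plasma cell lists was detected in at least 1 sample. Lists for mature B cells, erythroid cells, neutrophil precursors, basophils, T cells and monocytes had overlapping sums and 0 probes past the adjusted threshold in limma. Of their tested probes at most 2 per list were lower and at most 1 was higher at an unadjusted p under 0.05. The neutrophil precursor sums were 25529 to 61223 in young and 24593 to 52493 in aged samples, with at least 10 of the 11 genes detected in each sample. Of these genes 8 were lower and 3 higher in the aged. The smallest p-values were those of Prtn3 (log2 fold change 0.62, adjusted p = 0.0894 from limma) and Ngp (-0.46, 0.168). On the mature B list, with 6 genes lower and 2 higher, the Cd72 probe had every aged sample below every young sample. So did the Vpreb1 and Rag1 probes of the precursor list, and 0.217% of all tested probes. The lowest young value of Cd72 was 8.22 and its highest aged value 8.18 (log2 fold change -0.75, adjusted p = 0.0692 from limma). Just 1 of the 7 T cell probes was tested, and both probes of Cd3e, a chain of the T cell receptor complex, were left out by the filter. They were each detected in 1 of 9 young but 5 of 6 aged samples, with log2 fold changes of 0.68 (unadjusted p = 8.52e-05 from limma, adjusted p = 0.0677 where all probes were tested) and 0.31 (unadjusted p = 0.0453), and the first spanned 7.61 to 8.38 in young and 8.15 to 8.99 in aged samples. The other CD3 chains on the list, also untested, went the other way. Cd3g was detected in 6 of 9 young but 1 of 6 aged samples, with a log2 fold change of -0.41. Cd3d was detected in 4 young samples and 1 aged sample, with one of -0.43. Of the 5 T cell genes with a probe 3 were lower and 2 higher in the aged. The summed T cell signal was 1477 to 3338 in young and 1423 to 2056 in aged samples. The part of these other genes in the difference of the mitotic genes was not tested.

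**Figure D4:**
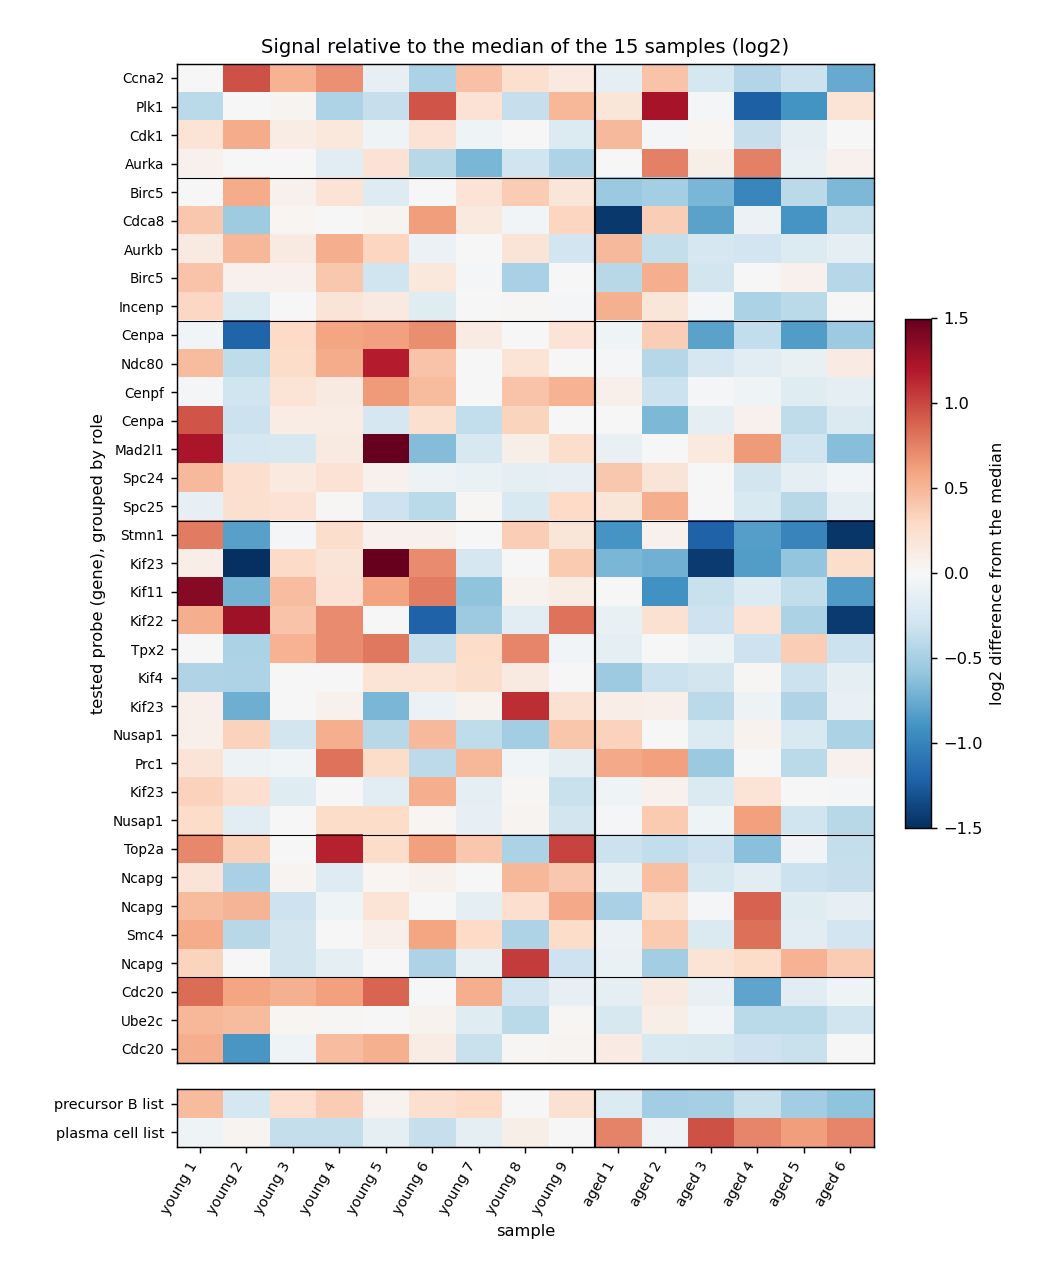
Log2 signal of the 35 tested member probes (rows, grouped by role) in the 15 samples (columns), each relative to its median over the samples, with the mean log2 signal of 2 marker lists below, values past the ends of the colour scale taking the end colour. The aged columns are mostly blue, that of aged sample 2 is mixed (21 of 35 probes above the median), and young sample 2 is low for many probes.

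The repeat arrays of young samples 3 and 4 show how well the member probes were measured. Between the 2 arrays of young sample 3 the median absolute log2 difference over the 35 member probes was 0.42, and for young sample 4 it was 0.45. Between arrays of different young samples it was 0.15 to 0.59 (median 0.38, 53 pairs). Thus 35 of the 53 pairs of different samples were at least as close on these genes as the repeats of sample 3, and 40 were as close as those of sample 4. Over all 11073 tested probes the repeats were closer, at 0.26 and 0.29, than most pairs of different samples (0.24 to 0.48, median 0.37), with 1 and 7 pairs as close. The largest member difference was 1.51, for Kif11 in young sample 4 (10.37 and 8.86). For the Birc5 probe past the threshold the repeats read 8.76 and 9.30 in young sample 3 and 9.47 and 8.85 in young sample 4, and all 4 values lay above every aged sample. For Top2a they read 8.03 and 8.76 in young sample 3, the first within the aged range.

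Most other cell cycle genes also had a lower mean in aged ASCs. Of 112 other mitosis genes 96 had a probe, 68 lower and 28 higher, with a median log2 fold change of -0.12. Of their 77 tested probes 0 passed the adjusted threshold in limma and 0 in the methods' t-test. At an unadjusted p under 0.05, 12 were lower and 0 higher, against 5.27% and 8.81% of all tested probes. The smallest p-values were those of the tubulin gene Tubb5 (log2 fold change -0.60, adjusted p = 0.173 from limma), the spindle motor Kif15 (-0.63, 0.187) and the inhibitor of the anaphase-promoting complex Fbxo5 (-0.48, 0.231). Of 39 DNA replication genes 36 had a probe, 34 lower and 2 higher, with a median of -0.28. Rrm2, the ribonucleotide reductase subunit that supplies deoxynucleotides, was the 1 probe of 45 past the threshold (log2 fold change -0.89, standard error 0.21, adjusted p = 0.0371 from limma). The helicase subunits Mcm6 and Mcm7 followed, at -0.58 (adjusted p = 0.0577) and -0.84 (adjusted p = 0.0597). Of all tested probes 0.325% passed as lower. At an unadjusted p under 0.05, 19 of the 45 replication probes were lower, against 5.27% of all tested probes. A difference in size between the lists was not tested.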

How the data were processed

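ASCs sorted from bone marrow were profiled in 9 young and 6 aged samples on 17 arrays. The deposited intensity values are average probe signals per array, to which the authors applied no background subtraction or normalization. A detection p-value was deposited for each of the 45281 probes. The authors also deposited quantile normalized intensity values for 26509 probes, used as an alternative. The scanner software is not given in the sources used here. No array count can serve as depth, and the number of arrays limits the precision.

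After quantile normalization with limma 3.58.1 in R 4.3.3, log2 values were taken, and those of the 2 arrays of young samples 3 and 4 were averaged. A probe was tested if 8 or more samples had a detection p-value under 0.05 and its highest and lowest samples differed 1.2-fold or more, which left 11073 probes. The two-sided test was lmFit with eBayes and its trend option, and p-values were adjusted over these probes by the Benjamini-Hochberg method. The platform annotation gives 20873 probes 1 symbol and 9 several. Coordinates and promoters are from RefSeq (GRCm38.p6). The samples carry no slide or scan time here. The packages data.table (1.17.8), pandas (2.3.3) and matplotlib (3.10.9) read the values and drew the figures. The procedure was tested on simulated data.

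Members and lists were chosen with earlier results of these data known. Fuller values are given for members past the threshold, and in each role for the 2 tested members with the smallest p and the one with the highest mean. They are also given for members whose tested probes disagree in sign or in passing the threshold. Where only an untested probe of a member had the opposite sign, less is given for it. Of the other lists, values are given for up to 3 genes with the smallest p. Alternatives were another scaling, background correction, the authors' normalized values, other filters, limma without trend or with array weights, the methods' t-test, single repeat arrays, a replicate block and leaving out samples. Leaving out young sample 1 and aged sample 1 together, the arrays with the lowest median signal of their group, was added after seeing the data.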

Additional observations from a re-analysis of the deposited data

Results flagged for a closer look

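Among 38 sets of sample values of the genes described in full, 2 had a sample far from the others, where chance gives about 1 in 20. Ncapg on probe ILMN_1227448 had a log2 signal of 8.77 in aged sample 2, and the other aged samples were at 7.97 to 8.21. Cdc20 on probe ILMN_2867899 had a log2 signal of 7.77 in aged sample 4, and the other aged samples were at 8.40 to 8.70.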

How the results depend on the processing

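The count of 2 member probes past the adjusted threshold (all lower) was 0 with 75th percentile scaling, 1 without a filter, 1 with detection in at least 6 samples, 1 with a filter on mean signal, 1 with the methods' t-test, 1 with array 2 only for young samples 3 and 4, 3 with normexp background correction (Birc5, Stmn1 and Top2a), and 6 with array weights (Birc5, Ccna2, Cdca8, Cenpa, Stmn1 and Top2a). Leaving out 1 sample gave 0 to 2, with 0 without aged sample 3, 4 or 6, and leaving out young sample 1 and aged sample 1 together gave 0. The Birc5 call was kept in 22 of 29 settings (adjusted p 0.00357 to 0.126) and the Stmn1 call in 7 of 29, and Top2a passed in 4 of 29 (0.0207 to 0.195). At an unadjusted p under 0.05 the 11 lower probes were 7 with 75th percentile scaling and 7 to 12 with 1 sample left out, and 9 with the methods' t-test, and the 1 higher probe was 2 without a filter and 0 to 1 with 1 sample left out. The 0 probes of other mitosis genes became 3 with array weights. The 1 probe of DNA replication genes became 0 with 75th percentile scaling, without a filter or with a filter on mean signal, 3 without trend, 10 with array weights, 2 with the methods' t-test, 0 to 6 with 1 sample left out (6 without young sample 2), and 0 without young sample 1 and aged sample 1. The median over the members, -0.18, was -0.39 with normexp background correction and -0.14 to -0.20 with 1 sample left out.

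The numbers 1 to 6 that young and aged samples share did not pair them: the correlation of deviations was 0.18, 0.23, -0.09, -0.06, -0.10 and -0.02. With the number as a replicate block over these 12 samples 0 member probes passed, where 1 (Top2a) did in the same 12 samples without the block. Under the replicate block the DNA replication count was 0, as it was without the block, and the count of higher member probes at an unadjusted p under 0.05 was 0 in both.

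Of the 18 probes described in full, the sign turned for 4, and with 75th percentile scaling 25 in place of 31 of the 35 tested member probes were lower. Plk1 became 0.11 and Spc24 0.12 with 75th percentile scaling, and Kif23 (ILMN_1250752) 0.12 there, 0.005 with array weights and 0.0044 without young sample 1 and aged sample 1, where Ncapg (ILMN_1227776) became 0.0328. With 1 sample left out, Plk1 ranged from -0.37 to 0.13, Spc24 up to 0.0002 and Kif23 from -0.0917 to 0.0189. The cause of these changes was not tested. Signals near background limit 40 of the 75 member probes, and the repeat arrays differed on these genes by as much as different young samples did.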
